A study of Drosophila melanogaster with 4 samples.

Results

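The NK homeobox cluster of Drosophila melanogaster is a stretch of chromosome arm 3R that holds tin, bap, lbl, lbe, C15 and slou, and the window taken for it was nearly empty of regions called enriched for H3K27me2. That window spans 160 kb from 17.19 to 17.35 Mb on 3R of FlyBase release 5, with 200 kb on each side as flanks. Its members are the called regions that overlap this window. They numbered 2 of 12968 in ChIP replicate 1, 2 of 11483 in ChIP replicate 2 and 3 of 17184 in the list that the authors made for both replicates together, here named the combined list. The window was selected on earlier views of its covered share in these same lists, so that share is given as a description with no test.

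H3K27me2 is histone H3 dimethylated at lysine 27. The series holds 2 ChIP samples, made with antibody Ab24684, and 2 input samples of genomic DNA, all from wild-type whole embryos of the strain Oregon-R aged 14 to 16 h. Per the labels' protocols, chromatin was crosslinked with 1.8% formaldehyde and left with antibody for 15 h. The files hold region positions and a score for each region but no read counts. Depth is therefore unknown, and sequence outside regions is described as uncalled, not as free of the mark. Whole embryos mix many cell types, so fewer marked cells and less of the mark per cell cannot be told apart.

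Polycomb repressive complex 2 places methyl groups on this lysine. The trimethylated form covers silenced developmental genes, homeobox genes among them, whereas the dimethylated form is spread more widely over chromatin that is not being transcribed. The trimethylated form was not analysed here. The NK genes encode homeodomain transcription factors, most of which act in the mesoderm, the embryonic layer that gives rise to muscle and heart. Each of them is expressed in a limited set of cells of the embryo.

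In order along the arm, tin (CG7895, also named NK-4) is required for the heart and the visceral mesoderm. Next to it, bap (CG7902, also named NK-3) acts downstream of tin in the founders of the gut muscle. The pair lbl (CG6570) and lbe (CG6545), ladybird late and early, sets the identity of particular heart cells and body wall muscles. C15 (CG7937), a relative of vertebrate Hox11 genes, is best known from the amnioserosa and the tip of the leg, so the description as mesoderm genes is loose for it. The last gene, slou (CG6534, also named NK-1), marks muscle founder cells. All 6 were found on 3R in the RefSeq gene table, in this order. Between tin and slou that table has 6 other protein-coding genes, Ugt49B2, CG7907, CheB93a, CheB93b, Fancm and sp3, and 6 long non-coding RNA genes. Ugt49B2 belongs to the UDP-glycosyltransferases, and Fancm is a DNA repair helicase.

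The gene table is of release 6 and the regions are placed on release 5, so no region was assigned to a single gene and the 6 genes have no separate values. In release 6 the stretch from the start of tin to the end of slou is longer than the window. The window can therefore not hold all 6 genes whole, if their spacing is alike in both releases. Whether the genes were transcribed in these embryos was not measured in the lists.

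Called H3K27me2 covered 3482 bp of the window in replicate 1 and 3148 bp in replicate 2, out of 160001 bp. These are covered shares of 2.18% and 1.97%, or 2.07% ± 0.148 (SD, n = 2). In the combined list the covered length was 6123 bp, or 3.83%. The replicates thus lay close together, and the window was almost bare in all 3 lists. Widened by 50 kb on each side, it had 5.82% covered in replicate 1 and 5.15% in replicate 2. The widening was to take in more of the slou end, on the right, and was chosen after seeing the data. Most of the rise came from the left side. There the added 50 kb had 10034 bp covered in replicate 1 and 8623 bp in replicate 2. On the right it had 1606 bp and 1624 bp. With regions below the median score of their list left out, 1 region was left in the window in each replicate and the share was 0.981% and 1.09% in replicates 1 and 2, and with the window narrowed by 10 kb on each side it was 1.12% and 1.24%.

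The left flank, on the tin side by the gene order of release 6, had 38.2% covered in replicate 1 and 33.2% in replicate 2. The right flank, on the slou side, had 21.1% and 14.8% in replicates 1 and 2. In the combined list the left flank had 45.2% and the right flank 38.0%. The window minus both flanks together came to -27.5 percentage points in replicate 1 and -22.0 points in replicate 2, a mean of -24.7 ± 3.85 points (SD, n = 2). With flanks of 100 kb in place of 200 kb the mean difference was -13.2 points. These differences describe the window, which was chosen with its share known. With 2 replicates the smallest p that exact sign-flip permutation can give (two-sided) is 0.5, and none was computed.

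**Figure D1:**
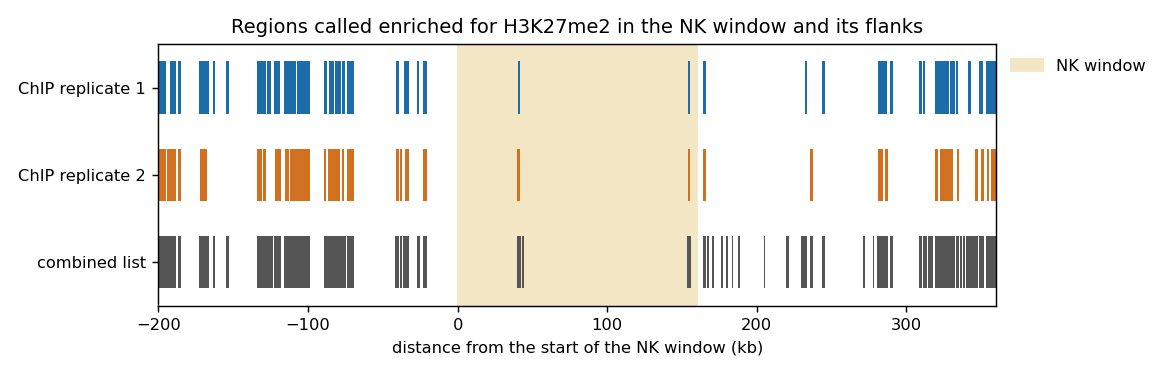
Called H3K27me2 regions as bars to scale along the horizontal axis, the distance from the start of the window in kb, for replicate 1, replicate 2 and the combined list from top to bottom. The shaded window of 160 kb holds 2, 2 and 3 regions in these lists. The left flank of 200 kb holds 21, 20 and 18, and the right flank of 200 kb holds 15, 13 and 34.

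Set against the arm as a whole, the window had 2.07% ± 0.148 covered and 3R 27.3% ± 4.66 (SD, n = 2 each). The share of 3R was 14.0 times that of the window in replicate 1 and 12.2 times in replicate 2. By number, the window had 1.25 regions per 100 kb in each replicate, against 10.8 and 9.69 per 100 kb over 3R in replicates 1 and 2. The window thus had few regions for its length.

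**Figure D2:**
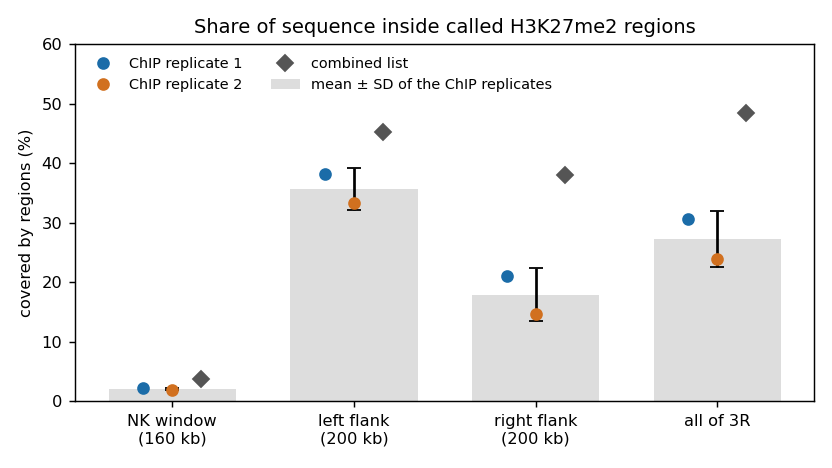
Percent of sequence inside called regions (vertical axis) for the NK window, the left flank, the right flank and all of 3R, with bars and error bars for the mean ± SD of the 2 ChIP replicates, circles for each replicate and diamonds for the combined list. The window lies at 1.97% to 3.83% in the 3 lists, below every other value plotted.

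Windows of the same length were then laid along 3R at steps of 1 kb, which gave 27746 overlapping windows. In replicate 1, 251 of them (0.905%) had a covered share at or below that of the NK window. For replicate 2 the count was 260 windows (0.937%), and the combined list had 250 such windows (0.901%). The median window of 3R had 30.3% covered in replicate 1 and 23.6% in replicate 2, and the combined list gave 48.4%. The NK window thus lay in the lowest 1% of windows of the arm in each list. With regions below the median score left out, 1.69% of windows in replicate 1 and 3.31% in replicate 2 lay at or below it. Since it was chosen with its share known, this rank is a description.

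These low windows came from only 2 places on 3R in each list. One was the place of the NK window itself, with 27 of the windows in replicate 1, 61 in replicate 2 and 27 from the combined list. The other ran from 12.45 to 12.83 Mb and held the remaining 224, 199 and 223 windows, among them windows with no region at all. Around the NK window the lowest share of each list was first reached at a start of 17170001. This is 20 kb before the window used here. Windows that began soon after it and ended before the second called stretch of the window tied with it. The lowest share was 0.981% in replicate 1 and 1.09% in replicate 2, and 2.44% by the combined list.

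**Figure D3:**
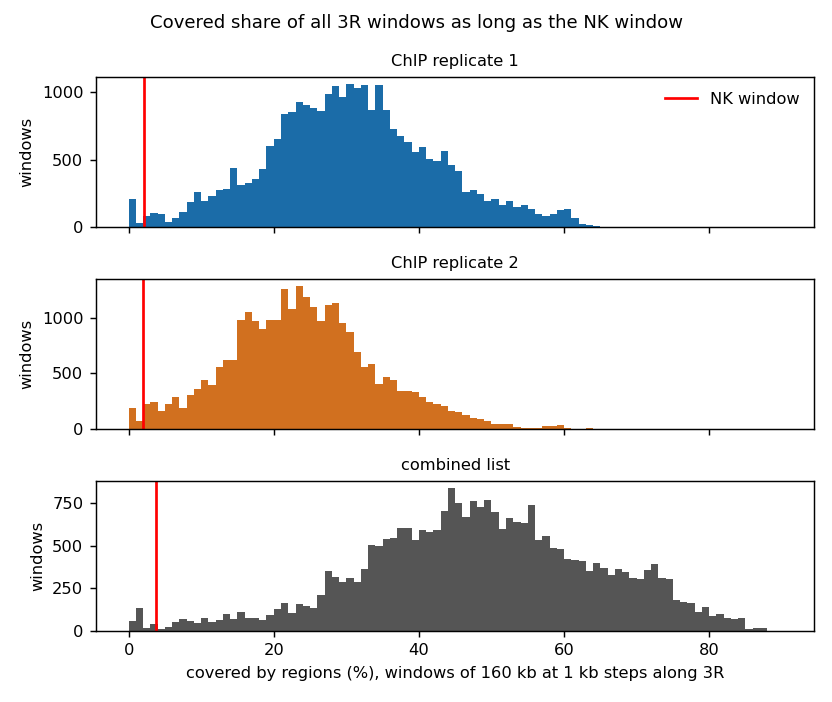
Number of 3R windows (vertical axes) by their covered share in percent (horizontal axis), for replicate 1, replicate 2 and the combined list from top to bottom, with a red line at the NK window. The line stands at 2.18%, 1.97% and 3.83%, at the low end of each distribution, whose medians are 30.3%, 23.6% and 48.4%.

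The window held 2 small islands of called H3K27me2, and both were called in both replicates. The first began about 40 kb into the window. It ran from 17230421 to 17231990 (1570 bp) in replicate 1 and from 17229898 to 17231639 (1742 bp) in replicate 2, which share 1219 bp. The second lay near the right edge, from 17343755 to 17345666 (1912 bp) in replicate 1 and from 17343755 to 17345160 (1406 bp) in replicate 2. Its start was the same base in both lists, and the whole of the replicate 2 region lay inside that of replicate 1.

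Mean widths were 1656 bp ± 122 for the first island and 1659 bp ± 358 for the second (SD, n = 2 each). In both replicates they were narrower than the median region of the arm, 2153 bp wide in replicate 1 and 2000 bp in replicate 2. The narrowest region of the arm was 1301 bp wide in each replicate, so the islands lay near the low end of called widths. Whether the caller set this limit is not given. In replicate 1 the first island was as wide as or wider than 17.7% of 3R regions and the second than 36.1%. In replicate 2 these shares were 34.8% and 10.3%. No region of the window reached 5 kb. Over 3R such regions were 279 of 3026 in replicate 1 and 147 of 2705 in replicate 2, so their absence among 2 regions says little. The left flank had 4 of 21 in replicate 1 and 4 of 20 in replicate 2. In the right flank they were 2 of 15 and 1 of 13.

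The scores of the islands were ordinary. The authors' score has no named scale, so it was read only as a percentile among the 3R regions of its own list. The first island stood at percentile 70.5 in replicate 1 and 69.1 in replicate 2. The second stood at percentile 50.2 in replicate 1 and 44.7 in replicate 2. The first island thus ranked above the second in both replicates. In the left flank the median region stood at percentile 78.8 in replicate 1 and 54.7 in replicate 2, and in the right flank at 37.2 and 42.5.

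In the combined list both islands were wider than in either replicate, from 17229830 to 17232302 (2473 bp) and from 17343506 to 17345730 (2225 bp). Their widths were close to the 3R median of that list, 2497 bp, at percentiles 49.7 and 44.7. They stood at percentiles 73.6 and 79.1 of the 3R scores. Here the second island ranked above the first, the other way round than in each replicate. A further region from 17232816 to 17234240 (1425 bp) followed the first island after 513 bp and overlapped no region of either replicate. Its score of 0.227 was at percentile 0.822 of the 3R regions, close to the lowest of the list. The combined list is the authors' own and carries no replicate error.

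Between the islands lay a long uncalled stretch. It spanned 111764 bp in replicate 1, from 17231991 to 17343754, and 112115 bp in replicate 2, from 17231640 to 17343754. In the combined list it spanned 109265 bp, from 17234241 to 17343505, and no region of any of the 3 lists entered this core. A second uncalled stretch reached from the left flank into the window up to the first island, with 61071 bp in replicate 1 (from 17169350 to 17230420), 60519 bp in replicate 2 and, by the combined list, 60347 bp. The last one, between the second island and the first region of the right flank, was short, with 8654 bp in replicate 1 and 9133 bp in replicate 2. Its length in the combined list was 8429 bp.

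Stretches of at least 50 kb were rare on the arm. They made up 36 of 3021 uncalled stretches of 3R in replicate 1 (1.19%), 57 of 2705 in replicate 2 (2.11%) and 26 of the 3770 of the combined list (0.69%). In each list 2 of these touched the NK window. By length, the stretch between the islands ranked 4 of 3021 in replicate 1, 9 of 2705 in replicate 2 and 2 of 3770 by the combined list. Over the 5 major arms (X, 2L, 2R, 3L and 3R) its rank was 26 in replicate 1 and 43 in replicate 2, and 9 by the combined list. With all 3 lists laid over one another, it was 1 of the 13 stretches that reached 100 kb across the major arms and 1 of the 4 on 3R. These ranks too describe a window chosen with its share known.

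**Figure D4:**
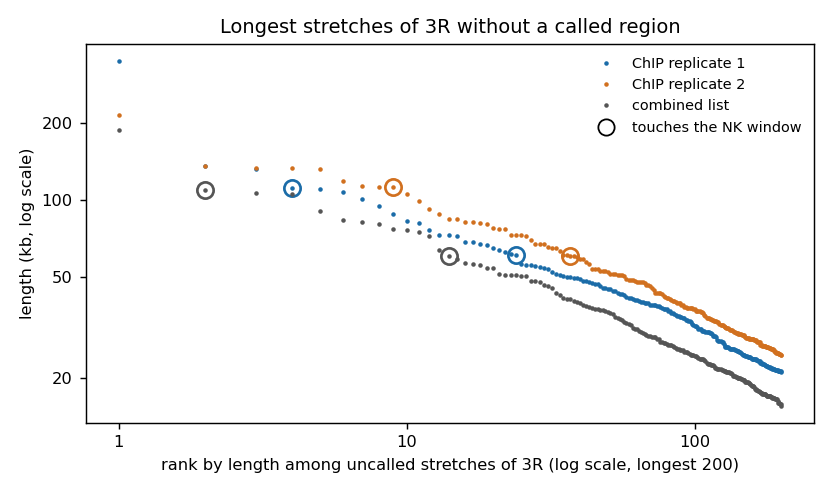
Length in kb (vertical axis, log scale) of the 200 longest uncalled stretches of 3R by rank (horizontal axis, log scale) in each list, with circles around those that touch the NK window. Circled stretches of 109.3 to 112.1 kb hold ranks 4 (replicate 1), 9 (replicate 2) and 2 (combined list), and those of 60.3 to 61.1 kb hold ranks 24, 37 and 14.

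The first island stood far from any other region. Its nearest neighbour was 61071 bp away in replicate 1 and 60519 bp away in replicate 2, whereas the median region of 3R had a neighbour within 1109 bp in replicate 1 and 1384 bp in replicate 2. By this distance it ranked 1 of 3026 regions of 3R in replicate 1 and 3 of 2705 in replicate 2. The distance is the length of the uncalled stretch to its left. In a window chosen with its low share known, this rank is thus a description and no separate trait. The second island had its nearest neighbour at 8654 bp in replicate 1 and 9133 bp in replicate 2, with ranks 170 and 182. In the combined list the added region put the nearest neighbour of the first island at 513 bp, so its rank there was 1891 of 3771. The isolation of the first island thus held in the replicate lists and not in the combined list.

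**Figure D5:**
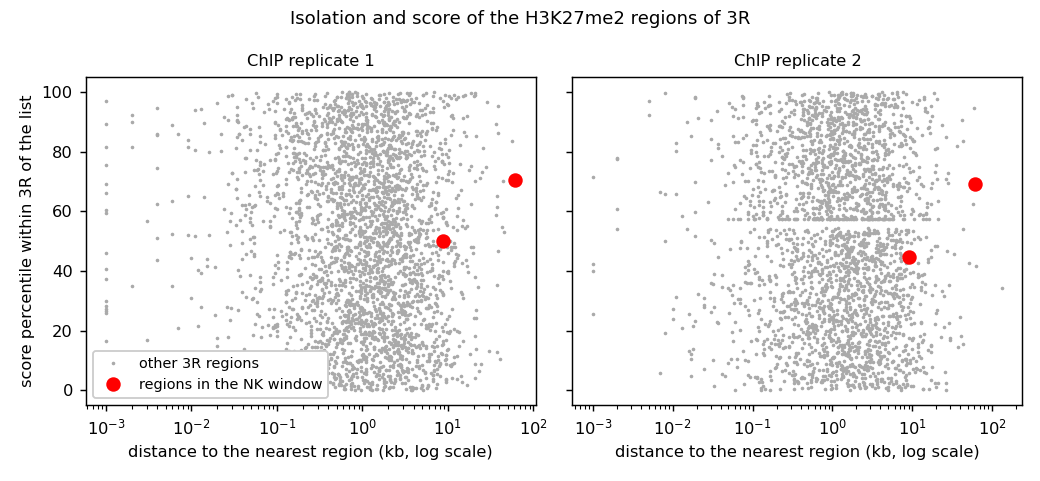
Score percentile among the 3R regions of the list (vertical axis) against the distance to the nearest region in kb (horizontal axis, log scale) for replicate 1 (left) and replicate 2 (right), with the regions of the NK window as red points and the other regions of 3R as grey dots. The first island lies far to the right at 61.1 kb and 60.5 kb, at percentiles 70.5 and 69.1, within the body of the scores.

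At the edges the 2 sides differed. On the left, the last region before the window ended 20.7 kb before its start in replicate 1 and 20.6 kb before it in replicate 2. On the right, the first region beyond the window began 4.32 kb after its end in replicate 1 and 4.29 kb after it in replicate 2. These neighbours were called in both replicates and had widths of 2547 bp and 2385 bp on the left and 1606 bp and 1624 bp on the right in replicates 1 and 2. The left neighbour stood at percentiles 78.8 and 91.3 of the 3R scores, and the right one at 37.2 and 44.4.

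Coverage climbed within 50 kb on the left side but not on the right side in the replicates. The 50 kb next to the window on the left had 18.7% ± 2.00 covered, and the next 50 kb had 33.2% ± 0.600 (SD, n = 2 each). On the right, the first 50 kb had 3.23% ± 0.025 and the next 50 kb 5.85% ± 2.01. From 100 to 150 kb the left side had 51.8% ± 6.81 and the right side 15.2% ± 6.27, and from 150 to 200 kb the values were 39.1% ± 4.55 on the left and 47.5% ± 9.80 on the right (SD, n = 2 each). In the replicates the lowest coverage thus ran on for about 100 kb past the right edge, the side of slou by gene order. From 100 to 150 kb on the right it was higher, 19.7% in replicate 1 and 10.8% in replicate 2. Both were still below the 30.6% and 24.0% of these replicates over 3R. On the right side the combined list was less bare but also low. It had 23.0% covered in the first 50 kb, 20.4% in the next and 25.6% from 100 to 150 kb. These values lay below its 48.4% over 3R, and from 150 to 200 kb it had 83.1%. On the left the zones had, in the same order, 26.7%, 41.7%, 63.6% and 48.9%.

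The few regions of the window were shared between the replicates as often as the data allow, with 2 of 2 overlapping in each direction. Over 3R, 70.5% of replicate 1 regions overlapped a region of replicate 2, and 83.6% of replicate 2 regions overlapped one of replicate 1. The Jaccard index, the length shared by the replicates over the length called in either, was 0.655 in the window, 0.713 in the left flank, 0.503 in the right flank and 0.505 over 3R. With 2 regions in each replicate the index of the window rests on 2625 bp shared out of 4005 bp, so no order between the segments was read from it. The uncalled part was shared as well, since neither replicate had a further region between the islands.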

How the data were processed

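The authors deposited 3 lists of enriched regions, for ChIP replicate 1, ChIP replicate 2 and the replicate set (combined list). Per the file headers, positions are on FlyBase release 5, counted from 1. The submitters' processing notes name Bowtie 0.12.7. The region caller, its threshold, mapping settings and pooling were not given in the sources used here. Each score is the authors' deposited value on an unnamed scale, so scores were compared only within a list. Per the labels, input replicate 1 served ChIP replicate 2 and input replicate 2 served ChIP replicate 1. Mappability of the window was not measured.

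Covered share was the union of regions over segment length. Overlap meant at least 1 bp. Nothing in the labels ties the ChIP samples to separate embryo collections, so their spread may be technical. All regions overlapping the window were named. The window, genes and measures were chosen with earlier results of these data known. Gene names and order came from the RefSeq table of release 6, and coordinates were not converted. Window sums and uncalled stretches were checked on simulated data. Python 3.11.15, numpy 2.4.6 and matplotlib 3.10.9 were used. Alternatives were a median-score threshold, equal region numbers, merging, other window edges and flanks, end-to-end windows, the combined list and each replicate left out.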

Additional observations from a re-analysis of the deposited data

How the results depend on the processing

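Of 36 values recomputed under the alternatives, 16 moved by more than the spread between replicates or, for the Jaccard index, by any amount. Some of the others could not move. A value with 1 replicate left out always lies within the SD of 2 replicates. Merging could not change the covered share of the window, whose islands lie far apart. Equal region numbers left the shorter list, of replicate 2, as it was. The count is therefore no measure of stability. Only the window minus flanks has a sign, and it stayed negative in all 10 of its alternatives. The covered share of the window was 1.03% when regions below the median score were dropped (1 island left in each replicate), 1.18% with the window narrowed by 10 kb on each side, 2.74% with it widened by 10 kb, 5.48% with it widened by 50 kb, and 3.83% in the combined list. The window minus flanks was -16.4 points at the median score, -13.2 points with flanks of 100 kb, and -37.8 points in the combined list. The percent of 3R windows at or below it was 2.50% at the median score, 0.891% narrowed, 1.14% widened by 10 kb, 1.15% widened by 50 kb and 1.15% end to end. The longest uncalled stretch was 220.3 kb at the median score and 109.3 kb in the combined list. In both replicates the second island and the first region right of the window scored below the median and dropped out. Dropping regions can only lengthen such a stretch. The Jaccard index was 0.582 at the median score. Leaving out a replicate gave 1.97% to 2.18% covered, -27.5 to -22.0 points, 0.905% to 0.937% of windows and 111.8 to 112.1 kb. The widening by 50 kb and the combined list were chosen after seeing the data. No paired analysis was possible because no list of the inputs was analysed here. Causes were not tested, and the unknown depth limits every statement on uncalled sequence.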

Other observations

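Seen from the replicates, the bare stretch was longer than the window. In replicate 1 only 3 regions, with 5088 bp in all, lay between 17169350 and 17422195, a tract of 252.8 kb with 2.01% covered. In replicate 2 the matching tract ran from 17169379 to 17425442 (256.1 kb) with 3 regions and 1.86% covered. Past the right edge of the window each had a further uncalled stretch, of 66269 bp in replicate 1 and 69525 bp in replicate 2. These limits were set after the values were seen.

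The combined list differed from the replicates in this part. Within the tract of replicate 1 it held 14 regions and covered 8.73%, and 10 of the 14 lay right of the window, with a median width of 1502 bp. In the right flank as a whole 16 of its 34 regions overlapped neither replicate, against 0 of 18 in the left flank, 1 of 3 in the window and 1053 of 3771 over 3R. The 50 kb next to the window on the right had 23.0% covered in the combined list and 3.21% and 3.25% in replicates 1 and 2. The lists also differed in their narrowest regions. Over 3R the narrowest region was 1301 bp wide in each replicate and 1001 bp in the combined list. Some combined regions right of the window, down to 1003 bp, were thus narrower than any 3R region of the replicates. How the replicates were pooled is not given. Whether the difference comes from the pooling or from unlike width limits was not tested.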
